A study of Mus musculus with 6 samples.

Results

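The genes described here are the 9 subunits of the CatSper calcium channel named in the deposited feature list by their symbols: Catsper1, Catsper2, Catsper3, Catsper4, Catsperb, Catsperd, Catspere1, Catsperg1 and Catsperz. All 9 were found among 32285 features. The tissue was the whole testis of male mice of the inbred strain C57BL/6J, all 11 weeks old at sampling. The 3 nicotine mice had drunk water with nicotine at 200 µg/mL for 8 weeks from 3 weeks of age, and the 3 control mice had normal water. Both testes of 1 mouse made 1 droplet library (10x 3' v3), so the mouse is the replicate.

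CatSper is the calcium channel of the sperm tail. Catsper1 to Catsper4 encode the subunits that form its pore. Catsperb, Catsperd, Catspere1 and Catsperg1 encode auxiliary membrane proteins that cover the pore on the outside, and Catsperz encodes a small protein on the inside that works together with the calcium-binding protein EFCAB9. The channel opens when the cell interior becomes alkaline, and the calcium that enters drives the vigorous tail beat needed for fertilization. Male germ cells pass through meiosis as spermatocytes, become round spermatids, and then elongate and condense; the tail is built in the spermatids.

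The libraries held 67853893 to 88329607 unique molecular identifiers (UMIs, counted transcripts), and 9848 to 11008 cells per mouse were kept, 61945 in all. Any 2 libraries shared 25 to 54 cell barcodes, at most 0.467% of the smaller library. Classes were named "-like" from marker genes after clustering without the CatSper genes. In developmental order they were leptotene/zygotene spermatocyte-like (644 cells), joint spermatocyte-like (1497), diplotene/dividing spermatocyte-like (3079), round spermatid-like (8434), joint round/elongating spermatid-like (1931), elongating spermatid-like (9177) and condensing spermatid-like cells (6306). "Joint" marks nearly equal marker scores for 2 stages; no cluster took the name pachytene. The place of the joint spermatocyte-like class in this order is uncertain: it was led by Magi2, Cyp19a1 and Macrod2, and its leptotene/zygotene score lay between those of its neighbours. Another 24849 cells, 40.1% of all, fell into low-UMI clusters that received no name. Levels are given as CPM, the UMIs of a gene in every 1000000 UMIs of the class in that mouse, as mean ± SD over 6 mice unless stated otherwise.

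The subunits did not peak in the same class. The auxiliary subunits Catsperb, Catsperd, Catspere1 and Catsperg1, and the pore subunit Catsper2, were highest in joint spermatocyte-like cells. Catsperz was highest in diplotene/dividing spermatocyte-like cells, and the pore subunits Catsper1, Catsper3 and Catsper4 in round spermatid-like cells. For each of the 9 genes the highest class stood above the second highest in 6 of 6 mice; both classes were picked by the means of these same mice, so this is a description and no p is given. Each gene was compared with itself across classes, and no level is compared between genes.

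**Figure D1:**
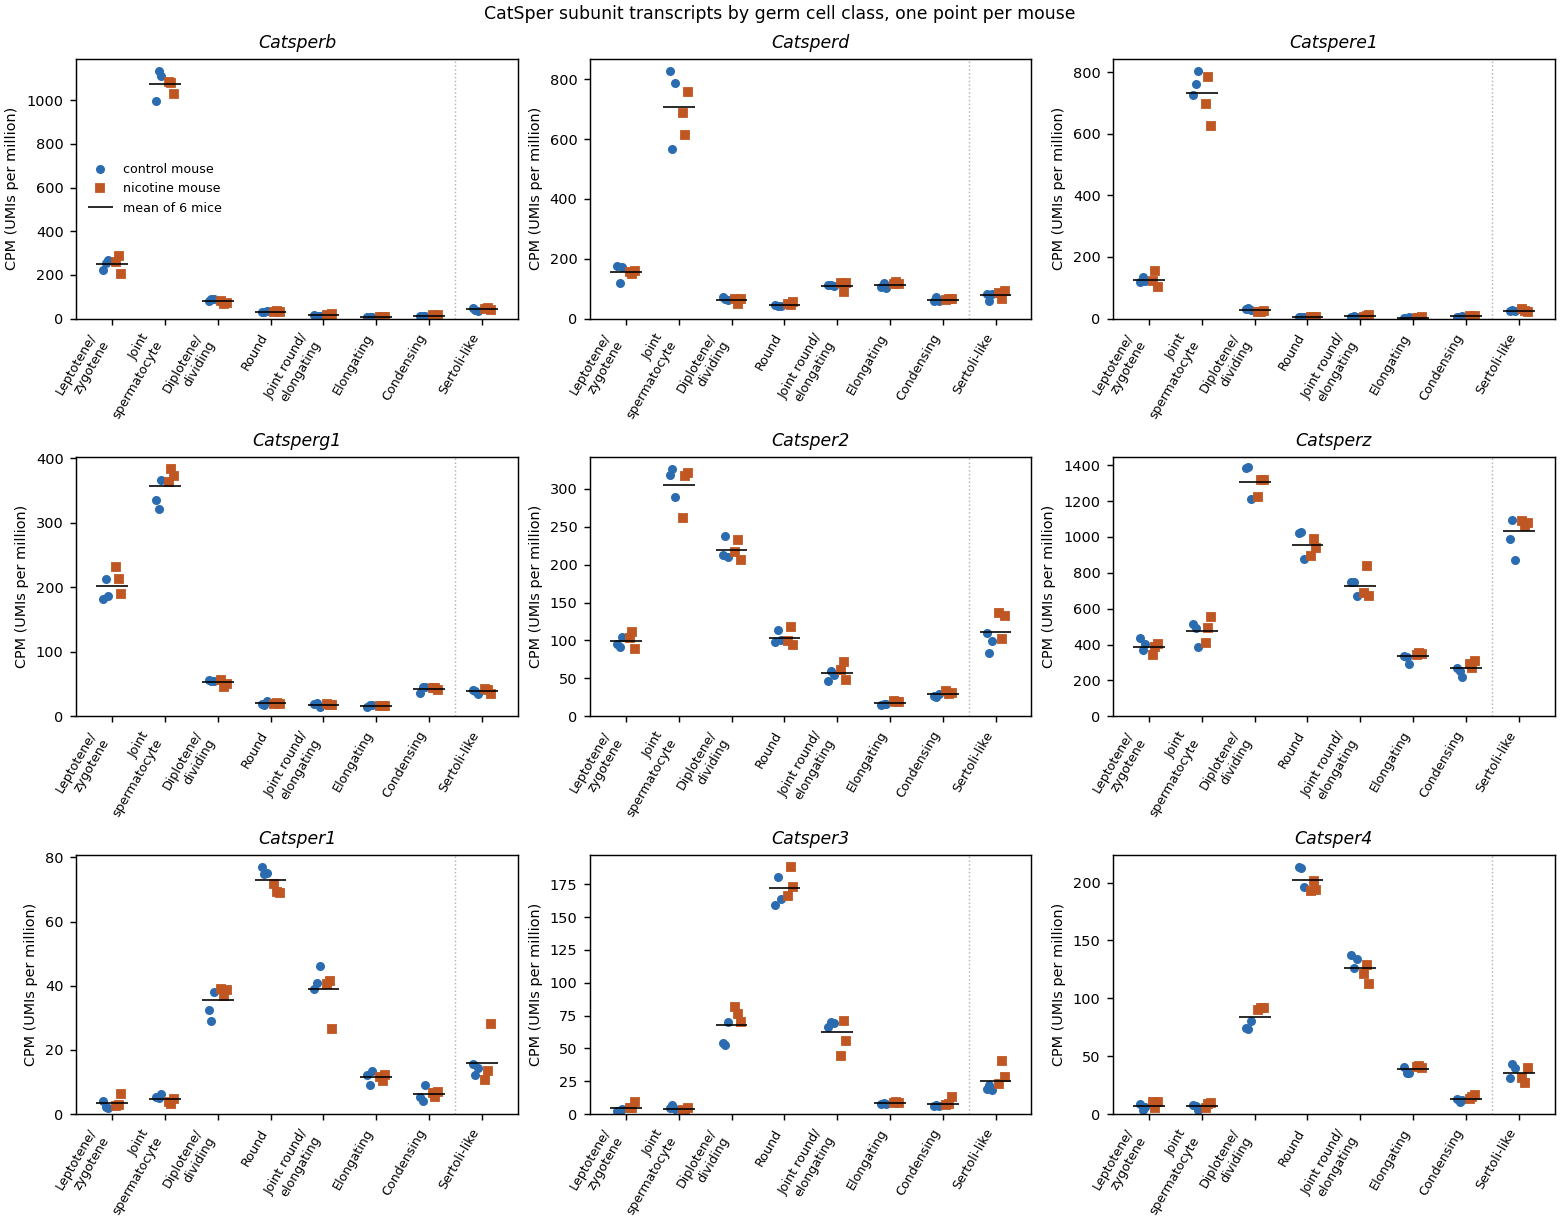
CPM of each subunit (vertical axis, linear) in the 7 germ cell classes in developmental order and, right of the dotted line, in Sertoli-like cells. Circles are control mice, squares nicotine mice and bars the mean of 6 mice; Catsperb, Catsperd, Catspere1, Catsperg1 and Catsper2 are highest in the joint spermatocyte class, Catsperz in the class after it and Catsper1, Catsper3 and Catsper4 in round spermatids.

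Catsperb lies at chr12:101404653-101626009 on the plus strand (GRCm38, GENCODE vM21 annotation) and spans 221 kb. In joint spermatocyte-like cells its level was 998, 1132 and 1110 CPM in the control mice and 1085, 1078 and 1029 CPM in the nicotine mice. The 2 groups overlapped there, and the mean of 1072 ± 50.1 CPM was 4.29 times that in leptotene/zygotene spermatocyte-like cells (250 ± 29.5 CPM). It fell to 79.5 ± 9.34 CPM in diplotene/dividing and 31.8 ± 2.28 CPM in round spermatid-like cells. The latter lay below the 41.9 ± 6.24 CPM in Sertoli-like cells.

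Catspere1 lies at chr1:177808550-177962233 on the plus strand and spans 154 kb. Its level in joint spermatocyte-like cells was 726, 761 and 802 CPM in control and 695, 784 and 623 CPM in nicotine mice, again with overlapping groups. The mean of 732 ± 65.8 CPM was 5.80 times that in leptotene/zygotene spermatocyte-like cells (126 ± 17.0 CPM). Of the 9 genes it had the narrowest range of classes: from round spermatid-like cells on it stayed at 3.21 to 7.38 CPM, at most 1.01% of its own peak and below the 26.1 ± 3.37 CPM counted in Sertoli-like cells. Catspere1 has a near copy, Catspere2, and how reads were divided between the pair is uncertain.

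Catsperd lies at chr17:56628143-56664456 on the plus strand and spans 36.3 kb. Its joint spermatocyte-like level was 828, 568 and 788 CPM in control and 689, 613 and 758 CPM in nicotine mice, a mean of 707 ± 103 CPM and 4.55 times the next class. In CPM, Catsperd was the subunit with a second high phase. It dropped to 46.7 ± 5.34 CPM in round spermatid-like cells and stood at 111 ± 10.9 CPM in joint round/elongating and 113 ± 7.16 CPM in elongating spermatid-like cells, above round spermatid-like cells of the same mouse throughout. Those later levels lay above the 77.4 ± 13.1 CPM in Sertoli-like and 24.4 ± 10.9 CPM in Leydig-like cells.

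Catsperg1 lies at chr7:29181321-29214035 on the minus strand, overlapped on the other strand by Gm17113. Its level was 202 ± 19.6 CPM in leptotene/zygotene and 357 ± 23.9 CPM in joint spermatocyte-like cells, a 1.76-fold step, the smallest among the 4 auxiliary membrane subunits. In single mice the joint spermatocyte-like values were 335, 321 and 366 CPM in control and 363, 383 and 373 CPM in nicotine mice. The level reached 16.3 ± 0.810 CPM in elongating and 42.6 ± 3.50 CPM in condensing spermatid-like cells, the latter close to the 38.8 ± 3.04 CPM in Sertoli-like cells. Reads shared with its near copy Catsperg2 make this gene's split uncertain too.

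The joint spermatocyte-like class had a higher mitochondrial share than its neighbours. Its mouse medians were 3.64% to 7.17% of UMIs. They were 1.37% to 2.62% in leptotene/zygotene and 0.257% to 0.491% in diplotene/dividing spermatocyte-like cells. Whether cell quality has a part in its levels was not tested. The joint spermatocyte-like class was also rich in long genes. Against leptotene/zygotene spermatocyte-like cells, the median log2 ratio of CPM + 1 was -0.11 over 2947 genes spanning under 10 kb and 0.37 over 1613 genes spanning over 100 kb. The ratios of Catsperb (2.10), Catspere1 (2.53), Catsperd (2.18), Catsper2 (1.61) and Catsperg1 (0.82) lay above both medians. Against diplotene/dividing spermatocyte-like cells the medians were -0.55 and 1.13, and 0.38 over 5211 genes spanning 10 to 50 kb. There Catsper2, which spans 21.2 kb, was at 0.48, near the last median and below that of the longest genes. Catsperb (3.74), Catspere1 (4.72), Catsperd (3.46) and Catsperg1 (2.74) lay above all of these medians. A low-UMI cluster of 844 cells (median 2046 UMIs) had similar levels, with 1304 ± 125 CPM of Catsperb, 833 ± 82.3 CPM of Catspere1 and 552 ± 83.7 CPM of Catsperd. The sources used here do not state whether reads from introns were counted, and the part of gene length in these levels was not tested.

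Catsper2, at chr2:121392631-121413792 on the minus strand, stood apart from the other pore subunits. It was at 305 ± 25.3 CPM in joint spermatocyte-like, 219 ± 13.0 CPM in diplotene/dividing and 104 ± 9.56 CPM in round spermatid-like cells. Its joint spermatocyte-like values of 318, 326 and 289 CPM in control and 261, 316 and 321 CPM in nicotine mice overlapped. The step between its 2 highest classes was 1.39-fold, and per cell it was higher in the later of them (4.42 against 1.94 UMIs of Catsper2 per cell), where the mouse medians were 14180 to 17201 UMIs per cell against 5073 to 5737. Its levels in round spermatid-like and leptotene/zygotene spermatocyte-like cells did not differ beyond their spread (104 ± 9.56 and 99.2 ± 8.75 CPM). Sertoli-like cells held 111 ± 20.6 CPM. The gene overlaps Gm14001 on its own strand and Gm14000 and Pdia3 on the other, so part of the reads could belong to these.

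Catsperz, at chr19:6922371-6925380 on the minus strand, had a broad profile. Its diplotene/dividing level was 1385, 1388 and 1211 CPM in control and 1224, 1320 and 1316 CPM in nicotine mice, with a mean of 1307 ± 76.2 CPM. It declined through 958 ± 62.7 CPM in round and 334 ± 23.0 CPM in elongating to 268 ± 30.9 CPM in condensing spermatid-like cells. Sertoli-like cells, which held a median of 866 to 1063 UMIs per cell, showed 1031 ± 86.9 CPM of Catsperz, 78.9% of its peak, and Leydig-like cells 179 ± 38.8 CPM. In droplet data free RNA gives UMIs in cells that do not express a gene, and Catsperz levels at or under these values cannot be told apart from it. The gene overlaps Kcnk4 on the same strand.

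The remaining pore subunits were highest in round spermatid-like cells. In diplotene/dividing spermatocyte-like cells they were already at 49.0% (Catsper1), 39.3% (Catsper3) and 41.3% (Catsper4) of that level. Catsper1, at chr19:5335741-5344280 on the plus strand, was at 77.2, 74.9 and 75.3 CPM in the control and 71.8, 69.3 and 68.9 CPM in the nicotine mice in round spermatid-like cells. Its mean there, 72.9 ± 3.41 CPM, was 1.87 times the 39.1 ± 6.57 CPM of joint round/elongating spermatid-like cells. In leptotene/zygotene spermatocyte-like cells only 34 Catsper1 UMIs were counted over all mice, and the 3.31 ± 1.62 CPM they make lay below the 15.8 ± 6.34 CPM of Sertoli-like cells.

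Catsper3, at chr13:55784568-55808998 on the plus strand, reached 159, 180 and 163 CPM in control and 166, 188 and 173 CPM in nicotine mice in round spermatid-like cells. The mean of 172 ± 10.9 CPM was 2.54 times the next highest class. Its diplotene/dividing (67.5 ± 11.8 CPM) and joint round/elongating levels (62.8 ± 10.6 CPM) on both sides of the peak did not differ beyond their spread, and in elongating spermatid-like cells it was down to 8.23 ± 0.512 CPM.

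Catsper4, at chr4:134211970-134227383 on the minus strand, was at 214, 213 and 196 CPM in control and 193, 202 and 194 CPM in nicotine mice in round spermatid-like cells (202 ± 9.35 CPM). It fell later than Catsper3: joint round/elongating spermatid-like cells still held 62.7% of the round spermatid-like level of Catsper4 and 36.6% of that of Catsper3. In elongating spermatid-like cells the shares were 19.2% and 4.79%. The 38.8 ± 2.48 CPM of Catsper4 there was close to the 35.4 ± 6.32 CPM in Sertoli-like cells.

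Cells were also ordered along a diffusion pseudotime, an ordering by similarity of expression made without the CatSper genes, and divided into 20 bins with equal cell numbers (156 to 374 cells per bin and mouse). The joint spermatocyte-like cells were left out of it. Spermatocyte-like cells made up most of bins 1 and 2, with 72 round spermatid-like cells in bin 2, and bin 3 was mixed (669 diplotene/dividing spermatocyte-like and 763 round spermatid-like cells). Bins 4 to 7 also held 55, 34, 15 and 11 leptotene/zygotene spermatocyte-like cells, so the ordering does not place every cell by its class. Round spermatid-like cells made up most of bins 4 to 8 and elongating spermatid-like cells most of bins 10 to 16. Onset was taken as the first bin at 50% of a gene's own highest bin in that mouse.

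Catsper1, Catsper3 and Catsper4 were the subunits whose median onset came after the first bin. At 10% of its own highest bin, by contrast, each of the 9 subunits had its median start in bin 1. Catsper1 reached 50% in bin 3 (median over 6 mice, range 2 to 3) and its peak in bin 6. Catsper3 reached it in bin 3 (range 3 to 4) and Catsper4 in bin 4 in 6 of 6 mice, with peaks in bin 6 and bin 7. Catsper3 fell from 56.9 ± 4.08 CPM in bin 9 to 9.62 ± 1.61 CPM in bin 10, where Catsper4 was still at 86.5 ± 5.88 CPM.

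Catsper2, Catsperb, Catspere1 and Catsperg1 were highest in the first bin in 6 of 6 mice. Catspere1 had its last bin at 50% or more at a median of bin 2.5, Catsperb at bin 4 and Catsper2 at bin 5. Catsperd started at 83.7 ± 9.64 CPM, was lowest at 29.7 ± 2.79 CPM in bin 7 and rose to 151 ± 11.6 CPM in bin 10, its highest bin in 6 of 6 mice. Catsperg1 was lowest in bin 9 (14.2 ± 1.90 CPM) and stood at 56.6 ± 6.11 CPM in bin 20, the bin with the fewest UMIs per cell (mean of the mouse medians 3259, against 15285 in bin 9); the part of depth in this was not tested.

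**Figure D2:**
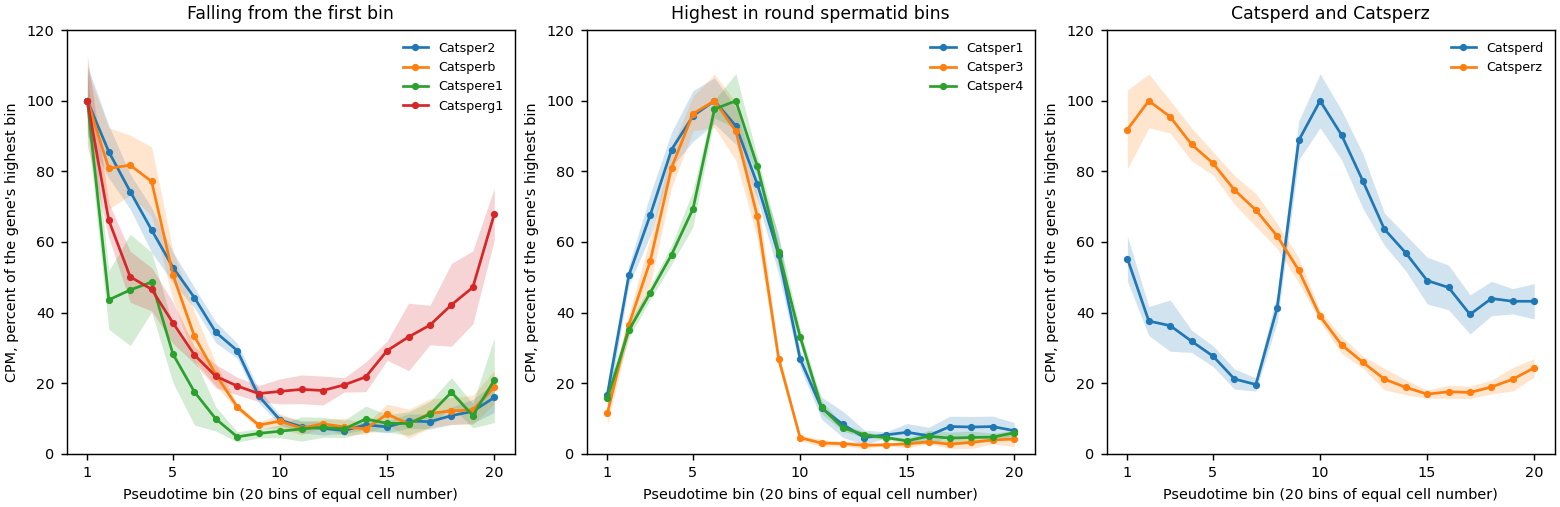
Mean CPM per pseudotime bin as a percentage of the gene's highest bin (vertical axis) over 20 bins from spermatocyte-like to condensing spermatid-like cells (horizontal axis); lines are means and bands the SD of 6 mice. Catsper1, Catsper3 and Catsper4 peak in bins 6 and 7, Catsperd in bin 10, and the other subunits in bins 1 and 2.

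No shift of onset was found with nicotine. The bin at 50% gave an exact permutation p of 0.4 for Catsper1 (mean bin 3 in control, 2.33 ± 0.577 in nicotine mice) and 1 for the other 8 genes (two-sided, adjusted p = 1 over the 9 genes); 3 against 3 mice cannot go below 0.1. Peak bins gave an exact permutation p of 1 for each gene. Catsperd had its onset in bin 1 in the control mice and at a mean of bin 3.67 ± 4.62 in nicotine mice, where the range reached bin 9. Positions are whole bins, so a shift smaller than a bin would not be seen. Catsper2, Catsperb, Catspere1, Catsperg1 and Catsperz were at 50% or more in bin 1 in every mouse. That is the start of an ordering without the joint spermatocyte-like cells, so an earlier onset of these genes could not be seen.

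Across the 42 class and mouse values, the pore subunits highest in round spermatid-like cells followed each other (Pearson r of log2 CPM + 1: 0.97 for Catsper1 with Catsper3 and 0.97 for Catsper1 with Catsper4), and so did Catsperb with Catspere1 (0.98). These values share libraries and depth and are a description. The 2 genes most like each subunit were sought among 12810 genes of at least 10 CPM in some class. They were 4930558C23Rik and Spaca3 for Catsper1 (0.99 and 0.98), Tex36 and Nipsnap3a for Catsper3 (0.99 and 0.99), and Tmem190 and Efcab9 for Catsper4 (0.99 and 0.99). For the spermatocyte group they were Catspere2 for Catsperb (1.00), 4930578E11Rik and Magi2 for Catspere1 (0.99 and 0.99), Ube3c and Ago2 for Catsperg1 (0.99 and 0.99), and Tdrd6 and Ccdc60 for Catsper2 (0.99 and 0.99). Catsperz was most like Insl6 and Acrbp (0.99 and 0.98). Spaca3 and Acrbp were also among the round spermatid markers used to name the classes. Catsperd, with its 2 phases in CPM, had the least close neighbours, Gm17231 and Cep57l1 (0.95 and 0.94).

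The other proteins of the complex and the near copies divided in the same 2 directions. Of 8 such genes 7 were found by symbol. C2cd6, whose protein is known for carrying the channel to the tail, was highest in joint spermatocyte-like cells (422 ± 8.64 CPM), as were the near copies Catspere2 (897 ± 53.4 CPM) and Catsperg2 (242 ± 8.57 CPM). Slco6c1, encoding a transporter-like protein of the complex, was highest in diplotene/dividing spermatocyte-like cells (323 ± 12.7 CPM) and nearly equal in joint spermatocyte-like cells (322 CPM). Efcab9 (432 ± 32.1 CPM), Tmem249 (134 ± 9.75 CPM) and Tmem262 (282 ± 17.8 CPM) were highest in round spermatid-like cells. Efcab9 thus peaked in the class after that of Catsperz, whose protein it pairs with.

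Because the subunits fell into an early and a late group, the promoters of 2 of each are shown. RefSeq windows (GRCm38.p6) from 250 bases before to 50 after a start were found for 8 of the 9 genes, 10 windows in all; Catsper1 was not among them. They were searched on both strands for AACNG (a core of MYB sites), TGACG and TGACGTCA (short and full CRE, the first contained in the second), GTTGCC (an RFX core) and GGGCGG (GC box). These motifs were chosen with the class profiles known. AACNG is in capitals. It occurred in 8 of the 10 windows, near the 80.3% of all 32851 promoters, so its count is not particular to these genes. The windows of Catsper3 and Catsper4 were the 2 without it. Catsper1, the other subunit of the late group, was not searched, and a difference between the groups was not tested.
Catsperb, chr12:101404423-101404722, plus strand: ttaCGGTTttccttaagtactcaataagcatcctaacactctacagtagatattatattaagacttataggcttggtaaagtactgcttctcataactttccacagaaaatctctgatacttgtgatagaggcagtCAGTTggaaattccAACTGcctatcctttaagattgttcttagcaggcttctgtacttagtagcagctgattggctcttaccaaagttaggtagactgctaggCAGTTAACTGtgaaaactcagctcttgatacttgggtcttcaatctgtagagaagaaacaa
Catspere1, chr1:177808169-177808468, plus strand: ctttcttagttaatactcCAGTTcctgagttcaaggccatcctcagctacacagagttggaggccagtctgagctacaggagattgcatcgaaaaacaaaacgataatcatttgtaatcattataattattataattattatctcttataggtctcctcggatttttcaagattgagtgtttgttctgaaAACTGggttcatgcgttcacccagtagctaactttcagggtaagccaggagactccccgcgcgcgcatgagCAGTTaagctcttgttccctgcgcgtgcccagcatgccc
Catsper3, chr13:55784329-55784628, plus strand: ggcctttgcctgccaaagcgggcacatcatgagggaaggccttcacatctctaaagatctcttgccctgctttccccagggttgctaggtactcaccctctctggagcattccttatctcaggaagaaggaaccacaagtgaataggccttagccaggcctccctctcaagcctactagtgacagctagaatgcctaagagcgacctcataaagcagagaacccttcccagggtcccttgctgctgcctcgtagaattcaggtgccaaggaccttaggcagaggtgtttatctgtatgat
Catsper4, chr4:134227334-134227633, minus strand: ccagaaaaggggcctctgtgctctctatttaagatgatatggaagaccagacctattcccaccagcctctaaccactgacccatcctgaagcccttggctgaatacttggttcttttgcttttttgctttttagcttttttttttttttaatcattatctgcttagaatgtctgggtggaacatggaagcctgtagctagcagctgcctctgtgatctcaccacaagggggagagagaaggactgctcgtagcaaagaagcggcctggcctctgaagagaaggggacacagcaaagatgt
The Catsperb window held 5 matches and the Catspere1 window 3. TGACG occurred in 2 of the 10 windows, those of Catsper2 and Catsperd, against 20.8% of all promoters, and TGACGTCA in none (1.79%). GTTGCC occurred in none (12.5%) and GGGCGG in 3 (35.7%). A match is a run of letters, not a shown binding site, and no match says only that these letters are not in the window.

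Between nicotine and control mice, subunits passed the test in the diplotene/dividing spermatocyte-like class. There Catsper3 and Catsper4 rose and Catspere1 fell, 3 of 9 genes at an adjusted p of 0.05 (edgeR quasi-likelihood test on summed counts, adjusted over all 14938 genes tested). In that class 4.63% of all genes were called, 3.19% higher and 1.44% lower. Library size without TMM scaling gave 276 genes higher and 237 lower in place of 476 and 215, and left Catspere1 alone of the 3.

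Catsper3 was at 54.0, 52.6 and 70.2 CPM in control and 81.5, 76.4 and 70.3 CPM in nicotine mice. The groups did not overlap, but control replicate 3 and nicotine replicate 3 were nearly equal. The log2 fold change was 0.40 ± 0.098 (SE, n = 3 per group, edgeR adjusted p = 0.0261).

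Catsper4 was at 74.2, 73.7 and 80.4 CPM in control and 89.5, 91.5 and 91.4 CPM in nicotine mice, without overlap. Its log2 fold change was 0.28 ± 0.073 (SE, edgeR adjusted p = 0.0318). Catspere1 was at 31.4, 33.0 and 28.3 CPM in control and 22.7, 22.4 and 23.5 CPM in nicotine mice, again without overlap. It fell by 0.41 ± 0.106 on the log2 scale (SE, edgeR adjusted p = 0.0309). Groups without overlap were found for these 3 of the 9 genes and for 23.4% of all genes in the class, 9.41% higher and 14.0% lower in nicotine mice.

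Of the other subunits in this class, Catsper1 had a log2 fold change of 0.24 ± 0.104 and Catsperb of -0.22 ± 0.081 (SE, edgeR adjusted p = 0.212 and 0.123). Catsperd (-0.14), Catsperg1 (-0.10), Catsperz (-0.02) and Catsper2 (0.01) did not pass either. The median of the 9 was -0.02 and that of all genes -0.00443.

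The makeup of the class moved with these differences. It consisted of a large cluster of 2941 cells and a small one of 138 cells with a median of 39232 UMIs. The small cluster held 5.61%, 7.13% and 4.66% of the class's cells in control and 2.45%, 2.25% and 3.70% in nicotine mice, and 9.56% to 15.6% against 4.35% to 7.22% of its UMIs. In the small cluster Catspere1 was at 157 ± 23.1 CPM, Catsper3 at 1.96 ± 1.02 CPM and Catsper4 at 3.99 ± 3.76 CPM. In the large cluster they were at 14.8 ± 1.04, 73.5 ± 9.82 and 91.1 ± 5.41 CPM. Nicotine cells of the class also lay later in pseudotime (median position 7.25% to 8.04% of all ordered cells, against 5.66% to 6.29% in control) and held fewer UMIs (median 14180 to 15729 against 16681 to 17201); neither pair of ranges overlapped (exact permutation p = 0.1 each, the smallest possible).

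Without the small cluster none of the 9 subunits passed. Catspere1 was then at 15.3, 14.2 and 15.1 CPM in control and 14.3, 16.5 and 13.5 CPM in nicotine mice, with a log2 fold change of 0.02 (edgeR adjusted p = 0.983). Catsper3 had 0.29 and Catsper4 0.16 (edgeR adjusted p = 0.157 and 0.365), and 1 gene of 14628 was called in all. With equal cell numbers per mouse in each pseudotime bin the log2 fold changes were 0.09 for Catsper3, 0.07 for Catsper4 and -0.16 for Catspere1 (edgeR adjusted p = 1 for each), and no gene was called, with 426 at an unadjusted p under 0.05. With doublets left in, Catspere1 had -0.06 and Catsper4 0.22 (edgeR adjusted p = 0.910 and 0.128), neither of them called. The 3 calls were also all lost without control replicate 1, control replicate 2, nicotine replicate 1 or nicotine replicate 2, where their edgeR adjusted p lay between 0.103 and 0.161. Catsper4 was lost without nicotine replicate 3 as well (0.0729).

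**Figure D3:**
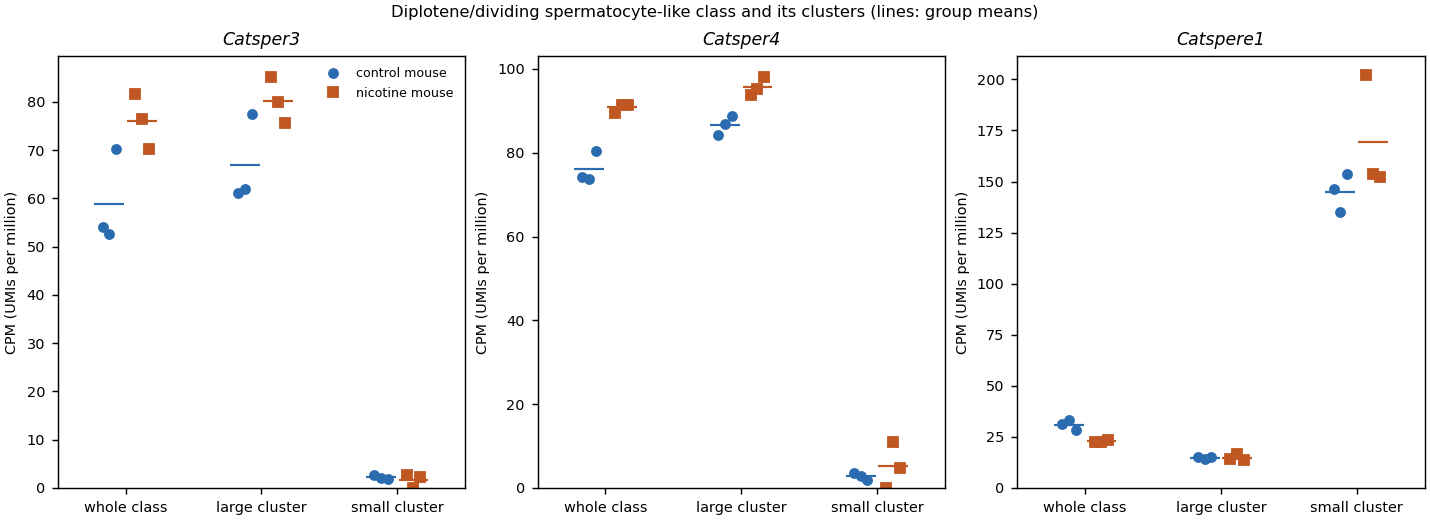
CPM (vertical axis, linear from 0) of Catsper3, Catsper4 and Catspere1 in the diplotene/dividing spermatocyte-like class as a whole, in its large cluster (2941 cells) and in its small cluster (138 cells). Circles are control and squares nicotine mice, lines the group means; Catspere1 overlaps between groups in the large cluster (14.8 CPM over 6 mice) and stands at 157 CPM in the small one.

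The other genes of the channel and of sperm function were counted in the same class, where 3.19% of all genes were called higher. Of the other complex genes 3 of 7 tested rose and none fell: Tmem249 by 0.55 ± 0.106, Efcab9 by 0.41 ± 0.089 and Tmem262 by 0.37 ± 0.099 on the log2 scale (SE, edgeR adjusted p = 0.00774, 0.0174 and 0.0471). Efcab9 was at 151 ± 21.8 CPM in control and 195 ± 16.5 CPM in nicotine mice. The median of the 7 was 0.08. Of 24 genes of sperm ion transport, motility signalling and fertilization, 21 were tested there and 4 rose: Cabyr (0.47), Izumo1 (0.39), Akap4 (0.31) and Akap3 (0.31), with edgeR adjusted p of 0.00468, 0.0177, 0.0312 and 0.0224. Cabyr encodes a calcium-binding protein of the fibrous sheath, Akap3 and Akap4 encode sheath proteins that anchor a kinase, and Izumo1 is needed for sperm-egg fusion. The median of the 21 was 0.16. None of these 7 called genes passed without the small cluster (log2 fold changes 0.19 to 0.44, edgeR adjusted p = 0.0542 to 0.244) or with equal cells per pseudotime bin (0.07 to 0.22, edgeR adjusted p = 1.00 for each).

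In every other class edgeR called none of the tested subunits. The classes tested 7 of the 9 in leptotene/zygotene and in joint spermatocyte-like cells (0.0% and 0.124% of all genes called), since Catsper1 and Catsper3 were too low there. All 9 were tested in round, elongating and condensing spermatid-like cells (0.0%, 0.0144% and 0.0%) and 8 in joint round/elongating spermatid-like cells (0.0%), without Catspere1. At an unadjusted p under 0.05 there was 1 in round spermatid-like cells, Catsperd (0.23 ± 0.097, SE, edgeR adjusted p = 1.00), and 1 in elongating spermatid-like cells, Catsper2 (0.24 ± 0.092, SE, edgeR adjusted p = 0.944). DESeq2 also called none outside the diplotene/dividing class.

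At their own peaks the subunits differed little between groups. In round spermatid-like cells the log2 fold changes were -0.10 ± 0.072 for Catsper1, 0.08 ± 0.074 for Catsper3 and -0.07 ± 0.071 for Catsper4 (SE). The Catsper1 values did not overlap between groups, and were lower in nicotine mice, as were 4.02% of all genes there. In joint spermatocyte-like cells they were -0.02 ± 0.092 for Catsperb, -0.12 ± 0.093 for Catspere1, -0.08 ± 0.107 for Catsperd, 0.13 ± 0.095 for Catsperg1 and -0.05 ± 0.097 for Catsper2 (SE). In elongating spermatid-like cells Catsper2 (15.9 ± 0.670 CPM in control and 19.4 ± 0.585 CPM in nicotine mice) and Catsperz did not overlap and were higher in nicotine mice, as were 11.0% of all genes there. In condensing spermatid-like cells Catsper2, Catsperb and Catsperz did not overlap and were higher in nicotine mice, as were 12.5% of all genes there. In both classes the levels of these genes lay below those in Sertoli-like cells, which held 111 CPM of Catsper2 and 41.9 CPM of Catsperb. The part of free RNA in these differences was not tested. CPM also carries no TMM scaling. Without TMM the median log2 fold change of all genes was 0.064 in elongating and 0.092 in condensing spermatid-like cells. With TMM these medians were 0.0079 and -0.0018. With TMM Catsperz had 0.07 in elongating spermatid-like cells. In condensing spermatid-like cells Catsper2 had 0.14, Catsperb 0.26 and Catsperz 0.13.

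**Figure D4:**
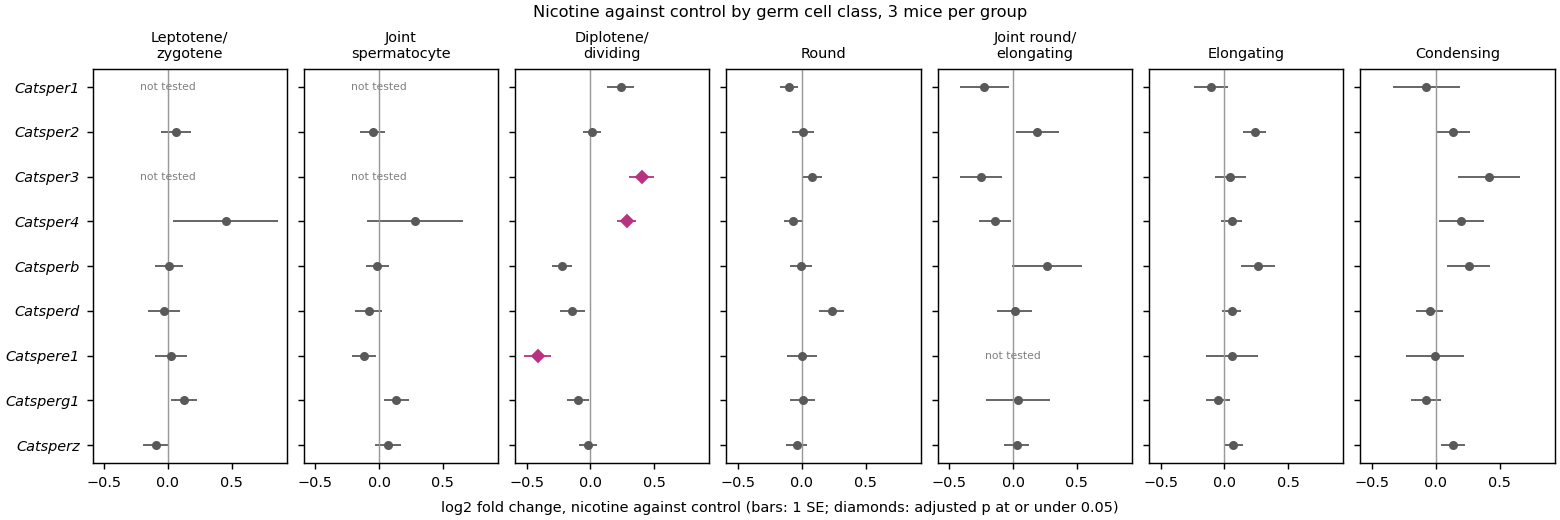
Log2 fold change of nicotine against control (horizontal axis) for each subunit (rows) in the 7 germ cell classes (panels), with bars of 1 SE and n = 3 mice per group. Diamonds mark the 3 values at an adjusted p of 0.05 or less, all in the diplotene/dividing class; "not tested" marks genes under the count filter.

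Summed over all kept cells no subunit was called (9 tested, 0.264% of all genes called, none of the 9 at an unadjusted p under 0.05). There a change in the number of cells of a class and a change of RNA per cell cannot be told apart. The 4 auxiliary membrane subunits had log2 fold changes of 0.13 to 0.16. Joint spermatocyte-like cells, where they were highest, made up 2.06%, 1.89% and 1.94% of kept cells in control and 3.27%, 2.76% and 2.66% in nicotine mice, without overlap (exact permutation p = 0.1).

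The nicotine effect was also compared between neighbouring classes, with the mouse as a block. It differed for Catspere1 between joint and diplotene/dividing spermatocyte-like cells, and for Catsper4 and Catsperd between diplotene/dividing and round spermatid-like cells (edgeR adjusted p = 0.0493, 0.00806 and 0.00707; 3.09% and 6.08% of all genes called in these 2 comparisons). The differences, later minus earlier class, were -0.35 ± 0.111, -0.32 ± 0.069 and 0.40 ± 0.083 on the log2 scale (SE). Without the small cluster they were not called: Catspere1 had 0.11 (edgeR adjusted p = 0.865), Catsper4 -0.20 and Catsperd 0.18 (edgeR adjusted p = 0.0819 and 0.307). No subunit passed between the other neighbouring classes, where 0.0165%, 0.375%, 0.0% and 0.0537% of all genes were called, in developmental order.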

How the data were processed

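The deposited UMI counts are whole numbers per gene and cell, not normalized; the authors counted them using Cell Ranger 7.2.0 and GRCm38 (mm10), per the submitters' processing notes. Settings for introns and strand, and the choice of cell barcodes, were not stated in the sources used here. The members and gene lists were chosen with earlier results of these data known, and the cell classes were rebuilt and can differ from the study's.

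Barcodes under 500 UMIs or 250 genes, or with 20% or more mitochondrial UMIs, were dropped. Scrublet's top scores were then taken out as doublets at 0.8% per 1000 cells (8.62% to 9.76% of a library). After scaling to 10000 UMIs and a log transform, 2000 variable genes (CatSper genes and both lists excluded) and 30 principal components entered a graph of 15 neighbours in scanpy 1.11.5. Leiden resolution 1 divided it into 27 clusters. To name a cluster, 3 or more markers had to exceed a fold of 1.5 and be found in 10% of its cells or more. Germ cell clusters also had to reach the median UMI number of all kept cells, and scores within 0.2 of each other led to a joint name. Clusters with near-equal elongating and condensing scores were put in the elongating class. Diffusion pseudotime used 10 components. It was meant for all germ cells; the joint spermatocyte-like cluster was left out after it was seen to fall past the late spermatids and to disorder other clusters, a choice judged on marker order.

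For each mouse and class with 20 cells or more, UMI counts were added up and fitted with edgeR 4.0.16 (quasi-likelihood, robust, filterByExpr defaults, TMM, Benjamini-Hochberg over all genes tested). The tests were tried on simulated counts with 200 changed genes. Those changes were larger than those of the called subunits, and class makeup was not varied, so the trial does not bear on these calls. DESeq2 1.42.0 and the other settings were alternatives. Named genes were the 9 subunits in each class, up to 5 called genes of each list by size, and the 2 genes most like each subunit, of which 1 is not reported here; list genes named for their level, and the leading genes of the joint class, were picked with their values in view. Gene positions are from GENCODE vM21 and promoters from RefSeq. Total counts per library limit the precision of low levels, and the edgeR p-values weigh a difference against the spread between mice.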

Additional observations from a re-analysis of the deposited data

Results flagged for a closer look

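The nicotine effect on 3 subunits differed between neighbouring classes by a test of the difference itself. For Catspere1 the log2 fold change was lower in diplotene/dividing than in joint spermatocyte-like cells by a difference of -0.35 (edgeR, adjusted p = 0.0493). For Catsper4 it was lower in round spermatid-like than in diplotene/dividing spermatocyte-like cells, a difference of -0.32 (adjusted p = 0.00806), and for Catsperd it was higher there, a difference of 0.40 (adjusted p = 0.00707). Each rests on the diplotene/dividing class, and none was called without the small cluster of that class.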

How the results depend on the processing

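The count of 3 called subunits, all in the diplotene/dividing class, stayed at 3 with DESeq2, with no filter on low counts, with at least 10 counts and with at least 1000 UMIs and under 10% mitochondrial UMIs. It was 1 without TMM and 1 with the replicate number as a block (Catsper3, edgeR adjusted p = 0.0419). It was 0 with equal cells per pseudotime bin, and 0 without the small cluster, an alternative chosen after seeing the data, where the log2 fold change of Catspere1 in the diplotene/dividing class reversed to 0.021. Leaving out 1 mouse gave 0 to 4. Resolution 2 gave 4 (with Catsperb), equal cells per mouse 2 (without Catspere1), and doublets left in 3. The last called Catsper2 and Catsperz in leptotene/zygotene spermatocyte-like cells beside Catsper3. Resolution 0.5, which formed no diplotene/dividing class, called the same 2 there. Over the settings the log2 fold change in that class ranged from -0.54 to 0.15 for Catsper2 and from -0.66 to -0.02 for Catsperz. The main fit had 0.07 and -0.10. The share of all genes called there in these settings is not given, so these calls are not read as a result about the 2 subunits. The genes called in the diplotene/dividing class numbered 691, against 1061 with no filter, 56 to 1797 with 1 mouse left out, 1 without the small cluster and 0 with equal cells per bin. They numbered 1004 of 14036 at resolution 2, 654 of 13821 with equal cells per mouse and 524 of 13752 with doublets left in. DESeq2 called 596, at least 10 counts 717, the stricter filter 692, no TMM 513 and the replicate block 493. Deviations of same-numbered mice correlated at -0.16, 0.64 and 0.07, and those of differently numbered mice at -0.57 to 0.60. These few values cannot decide whether the replicate numbers pair the mice.

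All 9 peak classes were the same with resolution 2, doublets left in, the stricter filter, any mouse left out, the small cluster left out and the Sertoli-like level subtracted. Resolution 0.5 put Catsperz in round spermatid-like cells, and UMIs per cell put Catsper2 in the diplotene/dividing and Catsperg1 in the leptotene/zygotene class. The 3 subunits with an onset after the first bin were the same with 40 bins, with UMIs per cell and with the stricter filter. Leaving any mouse out, or the only onset threshold tried between 10% and 50%, gave the same 3 as well. At a threshold of 10% all 9 medians lay in the first bin. With 10 bins there were 4 (with Catsperd). Including the joint spermatocyte-like cells in the pseudotime, chosen after seeing the data, gave 7 (with Catsperb, Catsperd, Catspere1 and Catsperg1). In that ordering the joint spermatocyte-like cells, where these added genes were highest, fell past the late spermatids. The 3 differences between neighbouring classes became 0 without the small cluster, 4 with no filter (without Catspere1) and 1 to 7 with 1 mouse left out (7 without control replicate 3, 1 without control replicate 1). The causes of these changes were not tested.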

Other observations

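Genes that act beside CatSper in sperm also peaked at different stages. Of 24 genes fixed as a list, 20 reached 10 CPM in some germ cell class. Slc9c1, a sperm sodium-proton exchanger, and Adcy10, the soluble adenylyl cyclase, were highest in joint spermatocyte-like cells (353 ± 30.6 and 174 ± 11.7 CPM, mean ± SD over 6 mice), as were Catsperb and Catspere1. Of the subunits of the sperm potassium channel, Kcnu1 was highest in diplotene/dividing spermatocyte-like cells (69.7 ± 7.64 CPM) and its partner Lrrc52 in round spermatid-like cells (112 ± 5.56 CPM). Atp1a4, a sodium pump subunit of sperm, was highest in elongating (238 ± 9.75 CPM) and Akap4 in condensing spermatid-like cells (1988 ± 78.3 CPM). Akap4 was also among the elongating spermatid markers used to name the classes, so its stage is not independent of the names. Hvcn1, Slc9b2, Slc26a3 and P2rx2 stayed at 0.372 to 8.10 CPM at their highest.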
